A study of Mus musculus with 14 samples.

Results

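Kruppel-like factors are transcription factors with zinc fingers at their carboxyl end that bind GC-rich and CACCC-type DNA, and different members activate or repress their targets. In the gut epithelium Klf4 is known from differentiated and goblet cells and Klf5 from dividing cells, so the family is often described along the axis from crypt to villus. The 10 members followed here were Klf2, Klf3, Klf4, Klf5, Klf6, Klf7, Klf9, Klf10, Klf13 and Klf15, each taken through every probe set annotated to exactly 1 of these symbols. That rule gave 27 probe sets of the 22690 on the arrays and 10 of the 12394 genes with a probe set of their own.

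The arrays, which carry short oligonucleotide probes read in 1 colour, covered 4 groups of mouse intestinal RNA. Crypts are the pockets where stem cells divide and Paneth cells lie, and villi are the projections lined mostly by absorptive enterocytes. Both came from small intestine of C57BL/6 mice aged 12 weeks, with 3 arrays each. Endoderm (the future epithelium) and mesenchyme (the future muscle and connective tissue) were separated by dissection after collagenase digestion at embryonic day 12 (E12), with 4 arrays each. The labels name no strain for the embryos and no other treatment, and every E12 array came from a pool, of 35 fetuses for replicate 1 and of 10 to 12 fetuses for replicates 2, 3 and 4. The 6 adult arrays and E12 replicate 1 of each layer make up the first value table, and E12 replicates 2, 3 and 4 of each layer the second. Levels are log2 signals, with ± for the SD among arrays of 1 group. Differences, also in log2, are first group minus second, with ± for the SE. The tables were normalized separately, so levels were compared within a table.

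The 30th percentile of an array, taken here as the edge of background, was 5.71 to 5.88 in the first table and 4.70 to 4.78 in the second. All 6 epithelial marker genes and 9 of 9 endothelial, 7 of 7 mesenchymal and 6 of 6 smooth muscle genes passed the test between the E12 layers. The first list was higher in endoderm and the others were higher in mesenchyme. Some genes of the latter lists averaged below background in endoderm, a limit given with Klf2 below. Between villi and crypts, 2 of 2 Paneth cell and 3 of 3 proliferation markers were lower in villi and 4 of 4 enterocyte markers were higher. Leaving out any 1 of the crypt arrays left 1 of the Paneth cell markers called. All 6 of 6 T cell genes were higher in villi too, with a mean log2 signal of 6.58 to 6.80 in crypts and 8.93 to 10.0 in villi (summed linear signal 721 to 848 and 4147 to 10214), and their part in the members' values was not tested. Of the T cell genes, Cd3g averaged 4.80 in crypts, below background. It could pass the filter for testing through villi alone, so its call is not separate support. In such tissue samples fewer cells of a type and less RNA per cell cannot be told apart.

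The upstream sequences of Klf3, Klf4 and Klf6, the 3 members higher in villi than in crypts, are printed to show the GC-rich DNA at their starts. Each is the 250 bases before the gene start in RefSeq (GRCm38.p6), 5′ to 3′ on the gene's strand. Capitals mark matches on either strand to CCNCNCCC, the loose consensus of sites bound by this family, or to GGGCGG, the GC box, and the motifs can overlap.
Klf3 promoter, chr5:64803271-64803520, plus strand: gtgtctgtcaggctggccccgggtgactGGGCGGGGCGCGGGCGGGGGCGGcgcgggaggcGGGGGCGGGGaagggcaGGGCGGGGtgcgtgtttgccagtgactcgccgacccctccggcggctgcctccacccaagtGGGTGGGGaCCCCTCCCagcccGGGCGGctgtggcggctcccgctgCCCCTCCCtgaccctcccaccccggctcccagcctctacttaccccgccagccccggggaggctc
Klf4 promoter, chr4:55532476-55532725, minus strand: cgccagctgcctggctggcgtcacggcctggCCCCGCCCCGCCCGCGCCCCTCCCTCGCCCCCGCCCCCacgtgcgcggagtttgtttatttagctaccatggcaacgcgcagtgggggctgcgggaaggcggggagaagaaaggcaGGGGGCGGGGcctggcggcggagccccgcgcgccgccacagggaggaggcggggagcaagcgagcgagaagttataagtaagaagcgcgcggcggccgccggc
Klf6 promoter, chr13:5861239-5861488, plus strand: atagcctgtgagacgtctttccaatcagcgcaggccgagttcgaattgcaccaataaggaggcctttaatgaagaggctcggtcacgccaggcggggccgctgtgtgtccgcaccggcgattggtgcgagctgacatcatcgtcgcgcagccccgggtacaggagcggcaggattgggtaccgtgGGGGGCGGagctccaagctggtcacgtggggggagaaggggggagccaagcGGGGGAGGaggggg
Klf3 had 10 matches to CCNCNCCC and 6 to GGGCGG, and 7 of the former overlapped a GC box. Klf4 had 9 and 4 with 7 overlapping, and Klf6 had 2 and 1 with 1 overlapping. Of the 8 members with a promoter entry, which Klf5 and Klf10 lacked, 7 held each motif. Of all 32851 promoter entries over the same length, 45.9% held CCNCNCCC and 32.7% held GGGCGG. The share of G and C was 59.2% (Klf7) to 78.4% (Klf3) in the members' entries and was not matched in this comparison. For Klf7 and Klf15 the stretch used lies inside the gene's RefSeq span. The letters say nothing on whether a factor binds there.

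Villi were compared with crypts to see how the family is placed along the adult axis. Klf4, Klf3 and Klf6 were higher in villi and Klf15 was higher in crypts, and the other 6 members did not pass the test. These were 4 of 10 members called by limma at an adjusted p under 0.05, 3 higher and 1 lower, where 32.0% of all 9962 genes tested were called, 16.9% higher and 15.0% lower. The median difference of the 10 members was -0.06, beside -0.00 over all genes. The plot of the first table shows each array.

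**Figure D1:**
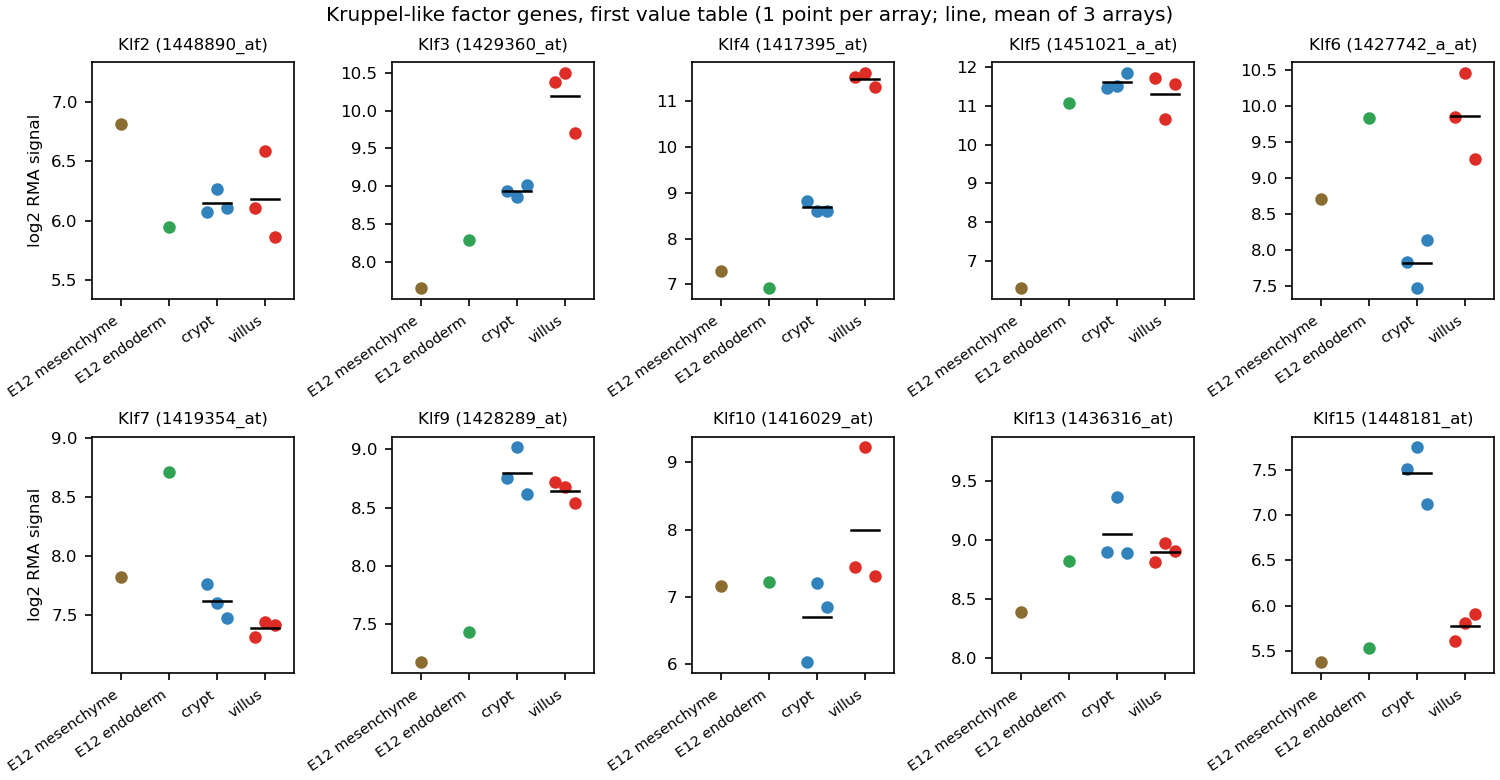
Log2 RMA signal (vertical axis) of the 10 members in the first value table, 1 point per array and a line at the mean of 3 arrays, by group (horizontal axis), with the probe set named in each panel and a vertical scale of its own in each. The 3 villus arrays of Klf4 lie at 11.30 to 11.61, above all crypt arrays (8.60 to 8.83), and the crypt arrays of Klf15 lie above all other arrays.

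Klf4 stood at 8.83, 8.61 and 8.60 in crypt replicates 12, 21 and 41 and at 11.52, 11.61 and 11.30 in villus replicates 12 and 41 and the remaining villus array, an order kept for all values that follow. The groups lay far apart and each was tight, with 8.68 ± 0.13 in crypts and 11.48 ± 0.16 in villi (n = 3 each). The difference was 2.80 ± 0.15, or 6.96-fold, with a limma adjusted p of 5.04e-05. The other Klf4 probe set gave 2.95 ± 0.25 with an adjusted p of 0.00037 when every probe set was tested on its own. Of 6 goblet cell markers, 4 were higher and 2 lower in villi, from Clca1 (2.39) to the goblet cell transcription factor gene Spdef (-1.39), with 3 to 6 called over the alternatives. Their mean log2 signal was 10.97 to 11.35 in crypts and 11.55 to 11.97 in villi, and their part in the Klf4 difference was not tested.

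Klf6, a broadly expressed member that is induced early by growth and stress signals, stood at 7.84, 7.48 and 8.14 in crypts and at 9.85, 10.46 and 9.26 in villi. All villus arrays were above all crypt arrays, and villus replicate 41 was the highest. Its difference was 2.04 ± 0.31, or 4.11-fold (limma adjusted p = 0.0026), and its other probe sets gave 2.56 and 2.58, both called. The first of these, 1418280_at, was at or below background in crypts (4.58 to 5.73, the 11.0th to 29.4th percentile). It passed the filter through the villus arrays alone, so its size is not exact and its call is not separate support.

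Klf3, a repressor that works through the cofactor CtBP, stood at 8.94, 8.85 and 9.01 in crypts and at 10.38, 10.50 and 9.71 in villi. The groups did not overlap, and the difference was 1.26 ± 0.22, or 2.40-fold (limma adjusted p = 0.0046). Its probe sets did not agree in size: 1421604_a_at gave 1.06 ± 0.22 and was called, while 1431630_a_at gave 0.17 ± 0.14 with an adjusted p of 0.40. Taking the median of its probe sets, the Klf3 difference was 0.19 and the limma adjusted p was 0.34 (0.002 to 0.34 over the alternatives).

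Klf15, known for control of glucose and amino acid metabolism under glucocorticoids, went the other way. Its signal was 7.51, 7.75 and 7.12 in crypts and 5.61, 5.81 and 5.91 in villi. Villus arrays were at the 26.6th to 32.3rd percentile of all probe sets, close to background, and crypt arrays at the 58.3rd to 71.3rd, so the size of the difference is not exact. It was -1.68 ± 0.19, a 3.20-fold excess in crypts, with a limma adjusted p of 0.00081. Klf15 has a single probe set.

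Klf5, the member tied to dividing epithelium, gave different answers from its 2 probe sets. The brighter, 1451021_a_at, stood at 11.46, 11.51 and 11.85 in crypts and 11.72, 10.67 and 11.55 in villi, with overlapping groups and a difference of -0.29 ± 0.28 (limma adjusted p = 0.47). The dimmer, 1451739_at, stood at 10.86, 10.50 and 10.45 in crypts and 10.08, 8.66 and 8.37 in villi, where every villus array was below every crypt array. That probe set gave -1.57 ± 0.42 and a limma adjusted p of 0.025 with all probe sets tested, and the median of both gave -0.93 with 0.046 (0.046 to 0.94 over the alternatives of the gene). Without villus replicate 41 the brighter probe set gave 0.03.

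Klf10, an early response gene of TGF-beta signalling, was spread widely. It stood at 6.03, 7.20 and 6.85 in crypts and at 7.44, 9.22 and 7.31 in villi. All villus values were above the crypt values, but only replicate 41 was far above, and the difference of 1.30 ± 0.53 had a limma p of 0.041 and an adjusted p of 0.10. Without villus replicate 41 the difference was 0.68.

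Klf9, Klf13, Klf7 and Klf2 showed no difference that passed the test. Klf9 and Klf13, both able to recruit the Sin3A repressor, differed by -0.15 ± 0.15 and -0.15 ± 0.17. Klf7, best known from neurons, differed by -0.23 ± 0.14, with villus arrays at 7.31 to 7.44 just under crypt arrays at 7.48 to 7.77, and Klf2, a gene of endothelium and lymphocytes, by 0.03 ± 0.20. Of 7 Klf9 probe sets 5 were tested, and 1456341_a_at was the one called, at -1.33 ± 0.27 (limma adjusted p = 0.0098), with 8.36, 8.82 and 8.66 in crypts and 7.45, 7.71 and 6.70 in villi. The sign of Klf13 was positive when the median over its probe sets was taken (0.17), and that of Klf2 was negative without crypt replicate 12 or villus replicate 41 (-0.0052 and -0.17). The plot of differences by probe set shows where the probe sets of a gene part.

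The lists of the wider family and its partners are read beside the 32.0% of all genes called between villi and crypts. Of 10 other Klf and Sp family genes tested, Sp5, a Wnt-responsive member, was called (0.94), and the median was 0.16. Sp5 averaged 5.53 in crypts, under the edge of background, and 6.48 in villi, so that size is not exact. No gene of that list was called without crypt replicate 21, villus replicate 12 or villus replicate 41 (0 called in limma). Of 11 cofactor and turnover genes, the corepressor gene Sin3b (0.89) and the acetyltransferase gene Kat2b (0.76) rose and Wwp1, a ubiquitin ligase gene (-0.81), fell, with a median of 0.12. Limma called 0 of the cofactors without crypt replicate 12 and 1 without crypt replicate 21. Among 12 reported targets of KLF4 and KLF5, 3 rose and 3 fell (median -0.09). The cell cycle inhibitor gene Cdkn1a (2.63) and the growth factor gene Pdgfa (1.19) led the rises, and the cell cycle genes Ccnd1 (-2.18) and Cdk1 (-2.16) led the falls. Of 11 glucocorticoid and clock responsive genes, which respond to cues that also act on Klf9 and Klf15, the clock gene Nr1d1 rose (1.46) and the glucocorticoid-induced Fkbp5 fell (-0.77), with a median of 0.04. Calls in that list ran from 0 to 2 without single replicates, with 0 in limma without crypt replicate 21, crypt replicate 41 or the remaining villus array, and 1 without crypt replicate 12 or villus replicate 41.

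Immediate-early genes, which many signals switch on within minutes, moved with the members that rose in villi. Of 11 tested, 8 rose and none fell in limma, with a median of 2.28 beside -0.00 over all genes. Among the 8, Dusp1 averaged 4.91 in crypts, below background. It could pass the filter through villi alone, so its call is not separate support. Fos stood at 6.91, 6.86 and 7.97 in crypts and 11.28, 11.94 and 11.16 in villi, a difference of 4.21, and Jun differed by 3.81. Summed over 12 genes, the linear signal was 2374 to 2933 in crypts and 7148 to 15235 in villi. By the probe set that stood for each gene, villus replicate 41 was the highest villus array of Klf2, Klf3, Klf4, Klf6, Klf7, Klf10 and Klf13. It was not the highest of Klf5, Klf9 or Klf15. For Klf4 it stood at 11.61, beside 11.52 in villus replicate 12. Probe sets of Klf9 and Klf13 parted in this. Klf9 probe set 1428288_at was highest (8.63) and Klf13 probe sets 1432543_a_at (7.83) and 1456030_at (6.36) were lowest in villus replicate 41. This array also had the highest mean log2 signal of the immediate-early list, 9.67. That mean was 8.88 and 8.56 in the other villus arrays and 7.13 to 7.23 in crypts. The part of what moved these genes in the Klf4, Klf6 and Klf10 values was not tested. Without villus replicate 41 the differences of Klf4 and Klf6 were 2.73 and 1.74 and both were called. The number of called genes of this list ran from 5 to 8 over the alternatives, lowest without villus replicate 12.

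**Figure D2:**
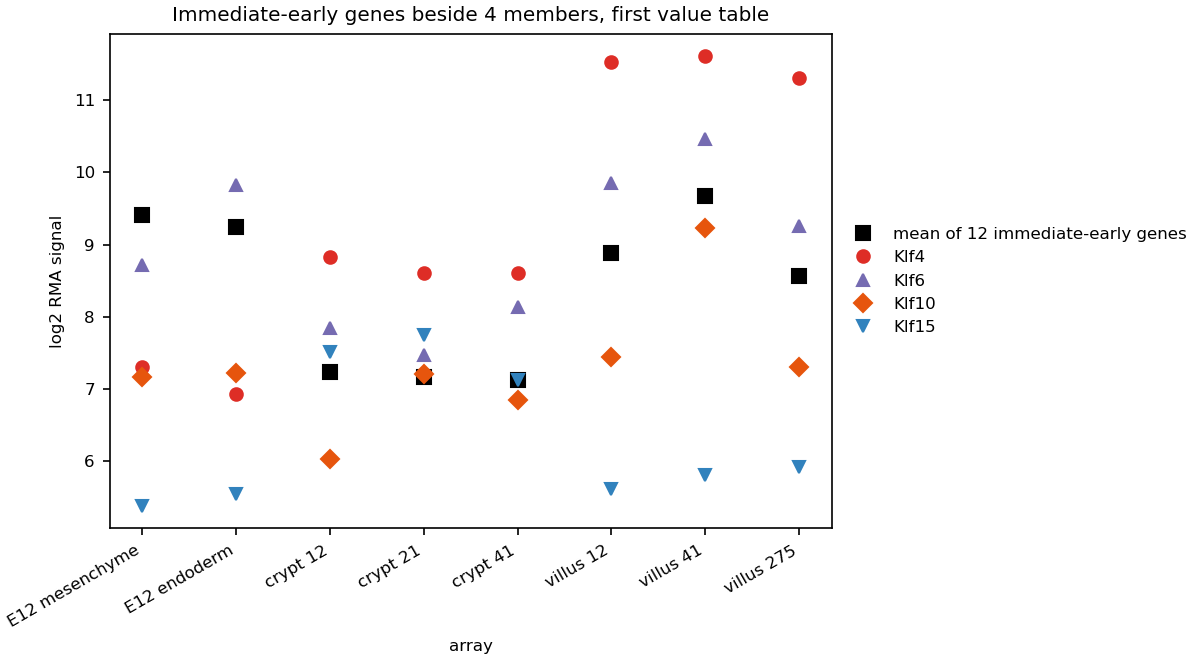
Log2 RMA signal (vertical axis) in each array of the first value table (horizontal axis) for Klf4, Klf6, Klf10 and Klf15, beside the mean over 12 immediate-early genes (squares). In villus replicate 41 the immediate-early mean (9.67) and Klf10 (9.22) are the highest of the villus arrays, while Klf15 is above 7 in crypts and below 6 elsewhere.

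The E12 layers were compared to see which members mark epithelium and which the tissue around it. Klf5, Klf6, Klf7 and Klf3 were higher in endoderm and Klf2 was higher in mesenchyme, 5 of 10 members. In this comparison 53.1% of 9442 genes were called, 27.7% higher and 25.4% lower in endoderm, so the share of members called was near that of all genes. The median over the members was 0.10, beside 0.03 over all genes.

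Klf5 had the widest gap of the family. Its level was 11.49, 11.68 and 11.49 in endoderm replicates 2, 3 and 4 and 4.93, 6.12 and 6.08 in mesenchyme. The layers were far apart, and mesenchyme lay at the 32.9th to 47.9th percentile of its arrays, from the edge of background to below the median. The difference was 5.84 ± 0.29, or 57.4-fold (limma adjusted p = 6.99e-07), a size that is not exact, and the second probe set gave 3.04 ± 0.35. On replicate 1 of each layer, in the first table, it stood at 11.08 in endoderm and 6.31 in mesenchyme, arrays that this test did not use.

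Klf6, by probe set 1433508_at, stood at 11.0, 11.67 and 11.42 in endoderm and 8.95, 9.33 and 9.30 in mesenchyme. No arrays overlapped, and the difference was 2.17 ± 0.18 (4.50-fold, limma adjusted p = 1.77e-05). Its remaining probe sets gave 2.02 and 2.34, both called.

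Klf7, by probe set 1449439_at, stood at 9.72, 9.94 and 9.62 in endoderm and 8.39, 8.83 and 8.44 in mesenchyme. All 4 of its probe sets were called, at 1.01 to 1.21, and the brightest gave 1.21 ± 0.14 with a limma adjusted p of 0.00015. Klf3 stood at 8.83, 7.92 and 8.40 in endoderm and 7.42, 7.39 and 7.39 in mesenchyme. Here its 3 probe sets were all called, at 0.43 to 0.99, and the brightest gave 0.98 ± 0.20 (limma adjusted p = 0.0036).

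Klf2 was the only member called higher in mesenchyme, with 5.66, 5.17 and 5.58 in endoderm and 7.52, 6.76 and 7.28 in mesenchyme. Its groups did not overlap, and the difference was -1.72 ± 0.21 (3.29-fold higher in mesenchyme, limma adjusted p = 0.00017). Several lists moved with it. Mesenchymal (7 of 7), smooth muscle (6 of 6), myeloid (3 of 3) and erythroid (4 of 5) genes were called lower in endoderm. The part of those lists in the Klf2 difference was not tested. In endoderm the myeloid genes C1qa (4.20) and Tyrobp (4.67) averaged below background and Csf1r (4.72) at its edge. These could pass the filter through mesenchyme alone, so their calls are not separate support. Without single replicates 1 to 3 myeloid, 5 to 6 smooth muscle and 7 mesenchymal genes were called. Lum (4.60), Pdgfra (4.52) and Myh11 (4.56) also averaged below background in endoderm, so their differences are not exact. Endothelial genes moved the same way, as all 9 of 9 were called lower in endoderm, with a fitted median of -2.95. Cdh5, Emcn, Pecam1, Robo4, Tek and Tie1 averaged 4.15 to 4.57 in endoderm, below background, and could pass the filter on 3 arrays through mesenchyme alone, so the median is not exact. Their mean log2 signal was 4.75 to 4.89 in endoderm and 7.49 to 7.65 in mesenchyme, and their part in the Klf2 difference was not tested. Leaving out any 1 of the mesenchyme arrays left 4 of the endothelial genes called. Genes below background in every endoderm array could then no longer pass the filter on 3 arrays. The fewer calls therefore do not measure a loss of difference. In adult arrays that mean was 5.98 to 6.21 in crypts and 6.07 to 6.18 in villi, near the edge of background, and Klf2 lay at 5.86 to 6.59 there.

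**Figure D3:**
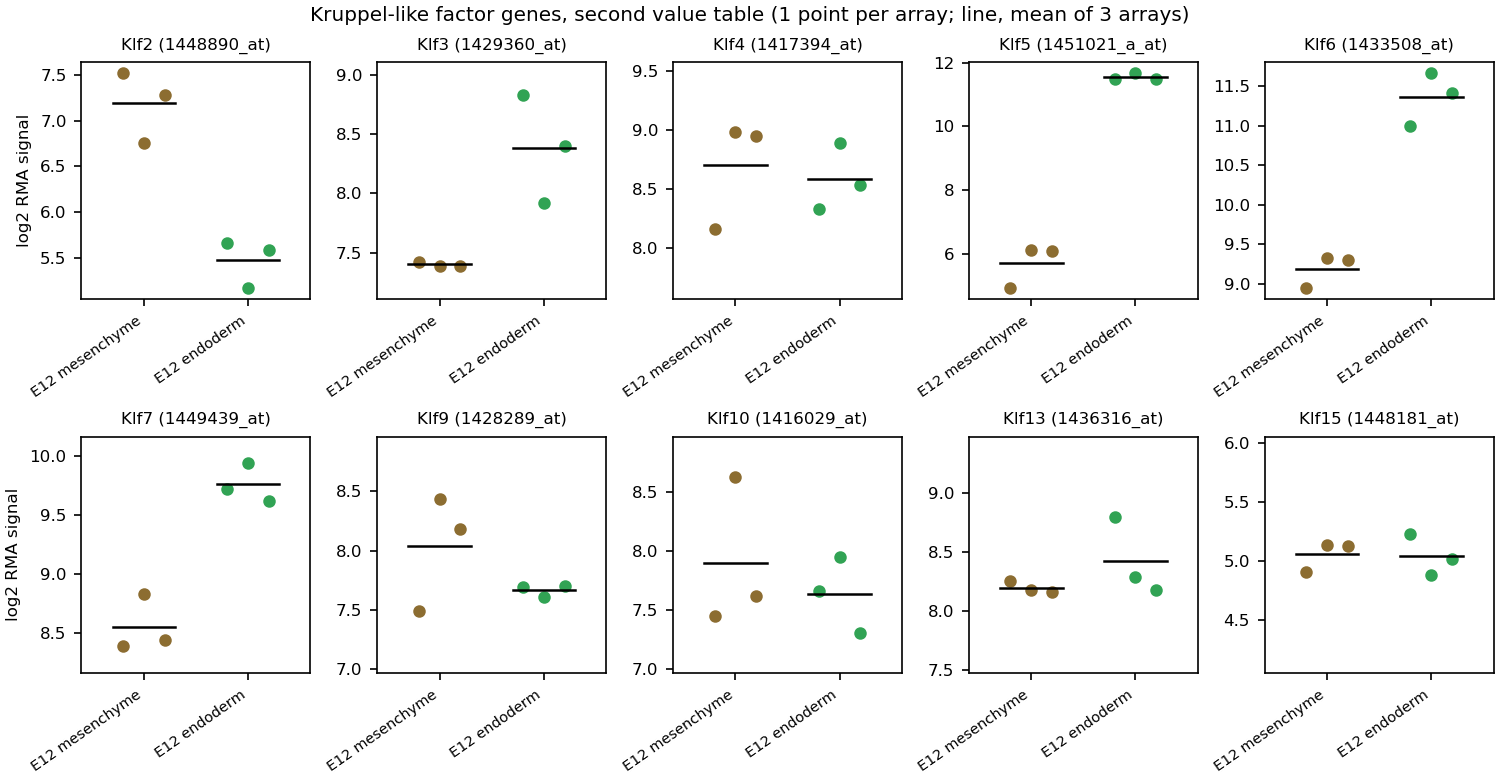
Log2 RMA signal (vertical axis) of the 10 members in the second value table, 1 point per array and a line at the mean of 3 arrays, for E12 mesenchyme and E12 endoderm (horizontal axis), with a vertical scale of its own in each panel. Klf5 separates the layers most, at 11.49 to 11.68 against 4.93 to 6.12, and Klf2 is the only member called higher in mesenchyme.

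The 5 called members differed in the same direction in the replicate 1 arrays of the first table, which have no test. Endoderm minus mesenchyme there was 4.78 for Klf5, 1.78 for the Klf6 probe set named above, 0.58 for the Klf7 probe set (-0.20 for its dimmest, 1419355_at), 0.64 for Klf3 and -0.88 for Klf2. These were smaller than in the second table for each of the 5.

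Klf4, Klf9, Klf10, Klf13 and Klf15 did not pass the test between the layers. Klf4 stood at 8.33, 8.89 and 8.53 in endoderm and 8.16, 8.98 and 8.95 in mesenchyme, overlapping throughout, with a difference of -0.11 ± 0.24 that changed sign without some single arrays. Klf15 was at 4.88 to 5.23 in endoderm and 4.91 to 5.14 in mesenchyme, near background in both, and its difference of -0.02 ± 0.12 turned positive after quantile normalization (0.06). Klf13 differed by 0.22 ± 0.15 and Klf10 by -0.26 ± 0.30, or by 0.105 without mesenchyme replicate 3. Klf9 differed by -0.37 ± 0.22 (limma adjusted p = 0.19), but without mesenchyme replicate 2, its lowest mesenchyme array, by -0.64 with an adjusted p of 0.0036 (0.0036 to 0.53 over the alternatives).

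Of 7 other family genes tested between the E12 layers, 3 were higher in endoderm and 0 lower, led by Klf16 (0.82) and Sp4 (0.39), with a median of 0.13, and 1 was called without mesenchyme replicate 4. Among cofactors 2 of 11 were higher, Kat2b (0.77) and the corepressor gene Ctbp2 (0.49), and 4 were lower, led by Sin3b (-0.64) and Wwp1 (-0.59), with a median of -0.08. Of 13 reported targets 5 rose and 5 fell (median -0.04), from the keratin gene Krt19 (3.89) and Cdkn1a (2.75) to the smooth muscle gene Tagln (-4.34) and the growth inhibitor gene Cdkn1c (-2.12). Of the glucocorticoid and clock genes, 5 of 11 were higher, led by Zbtb16 (1.24) and Nr1d1 (0.89), and 2 were lower, Tsc22d3 (-1.72) and Tef (-0.80), with a median of 0.07. Immediate-early genes split, with 2 of 12 higher and 5 lower in endoderm (median -0.24).

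Adult epithelium was set against E12 endoderm in the first table, where endoderm has 1 array that was assumed to vary like the other groups. Both adult comparisons share that array, and it came from another age, a pool and a dissection with collagenase, so age and preparation cannot be told apart. In crypts, Klf4, Klf9 and Klf15 were higher than in endoderm and Klf6 and Klf7 lower, 5 of 10 members where 23.3% of 10082 genes were called (8.20% higher, 15.1% lower). After quantile normalization those calls split into 1014 higher and 1172 lower, beside 827 and 1521. In villi, Klf4, Klf3 and Klf9 were higher than in endoderm and Klf7 lower, 4 of 10 members where 39.1% were called (17.0% higher, 22.1% lower). The members' medians were 0.38 and 0.24, beside 0.05 and 0.13 over all genes.

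Klf4 was at 6.93 in endoderm and 7.30 in mesenchyme, 1 array each, and the same probe set was not called between the layers by limma in the second table (-0.02 ± 0.18, adjusted p = 0.94). Crypts were higher than endoderm by 1.75 ± 0.21 (limma adjusted p = 0.0015) and villi by 4.55 ± 0.21 (1.73e-05 in limma after adjustment). The other Klf4 probe set gave 1.12 ± 0.35 in crypts, which was not called (limma adjusted p = 0.057), and 4.07 ± 0.35 in villi, which was. Goblet cell markers were higher than in endoderm too, 6 of 6 in crypts and 5 of 6 in villi, with a mean log2 signal of 6.93 in endoderm, and their part in the Klf4 differences was not tested. Klf9 was at 7.44 in endoderm and at 8.62 to 9.02 in crypts and 8.54 to 8.72 in villi. Its differences were 1.36 ± 0.22 and 1.21 ± 0.22, with limma adjusted p of 0.0046 and 0.0036. Of its 5 tested probe sets, 1436952_at (0.29 in crypts, 0.04 in villi) and 1452723_at (0.26 and 0.20) were not called in either.

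The dimmest Klf7 probe set, 1419355_at, lay near background, at 5.82 in endoderm and 6.03 in mesenchyme. It differed from endoderm by -0.13 in crypts and -0.09 in villi. By the brightest probe set in this table, Klf7 was highest in endoderm, at 8.71, against 7.48 to 7.77 in crypts and 7.31 to 7.44 in villi. Its differences were -1.09 ± 0.20 and -1.32 ± 0.20 (limma adjusted p = 0.0074 and 0.0015), or -2.04 and -2.16 when the median over its probe sets was used. Klf15 was at 5.54 in endoderm, near background, and crypts were higher by 1.92 ± 0.27 (limma adjusted p = 0.0028). In villi the difference from endoderm was 0.24 ± 0.27, so in this table crypts were the group in which Klf15 stood clear of background.

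Klf6 was lowest in crypts, with 9.83 in endoderm, a like level in villi (a difference of 0.03 ± 0.44) and crypts lower by -2.01 ± 0.44 (limma adjusted p = 0.016). Without crypt replicate 21 the adjusted p was 0.052 (0.0028 to 0.052 over the alternatives). The other 2 probe sets gave -2.90 and -3.46, both called, the latter from 1418280_at, whose crypt signal was at or below background, so that its size is not exact. Without villus replicate 41 the villus difference was -0.27, and it was -0.28 with the median of the probe sets. Immediate-early genes moved with this too, as 8 of 12 were lower in crypts than in endoderm (median -1.40) while against villi 1 was higher and 4 lower (median -0.10). Of the latter, 3 were called without the remaining villus array. Their part in the Klf6 difference was not tested.

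Klf3 rose from endoderm to villi by 1.90 ± 0.31 (limma adjusted p = 0.0023), or 0.66 as the median of probe sets, and differed by 0.64 ± 0.31 in crypts (limma adjusted p = 0.17). The other Klf3 probe sets, 1421604_a_at and 1431630_a_at, gave 0.64 and 0.16 in villi and -0.42 and -0.01 in crypts. Klf5 was at 11.08 in endoderm and differed from it by 0.52 ± 0.39 in crypts and 0.23 ± 0.39 in villi. Its dimmer probe set rose in crypts by 2.49 ± 0.59 (limma adjusted p = 0.023). Over the median of both, the crypt difference was 1.51 and had a limma adjusted p of 0.038 (0.038 to 0.51 over the alternatives). Klf2, Klf10 and Klf13 differed from endoderm by 0.21, -0.53 and 0.23 in crypts and by 0.24, 0.77 and 0.07 in villi, none of them called in limma. Leaving out single arrays moved Klf10 between -0.78 (crypt replicate 21) and -0.20 (crypt replicate 12) in crypts and between 0.15 (villus replicate 41) and 1.11 (the remaining villus array) in villi. It moved Klf2 in villi between 0.04 (villus replicate 41) and 0.40 (the remaining villus array), Klf13 in crypts between 0.07 (crypt replicate 21) and 0.31 (crypt replicate 41) and Klf13 in villi between 0.03 (villus replicate 41) and 0.11 (villus replicate 12).

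Of the partner lists against E12 endoderm, 0 of 10 other family genes were called by limma in crypts (0 at an unadjusted p under 0.05), and Sp5 was the 1 called in villi (1.25, a size that is not exact since endoderm, at 5.23, was below background), where leaving out any 1 of the villus arrays left 0 called in limma. Cofactors gave 1 higher and 2 lower of 11 in crypts and 1 higher and 6 lower in villi. The histone deacetylase gene Hdac1 was at -1.23 and the corepressor gene Sin3a at -1.13 in crypts, and Kat2b was higher in both (0.91 and 1.66). Without crypt replicate 21 limma called 0 of the cofactors and 3 of the targets in crypts. Of 12 reported targets, 2 rose and 4 fell in crypts and 2 rose and 5 fell in villi, with Cdkn1c lower in both (-3.58 and -3.15) and Cdkn1a higher in villi (2.97). Of 11 glucocorticoid and clock genes, limma called 0 in crypts (1 at an unadjusted p under 0.05) and 1 in villi, Fkbp5 at -1.06 (0 to 2 without single villus arrays, with 2 without replicate 12 and 0 without the remaining array). Medians were -0.48 and -0.79 for cofactors, -0.20 and -0.67 for targets, and 0.45 and 0.51 for the glucocorticoid and clock list.

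The order of groups within the first table differed from member to member. For Klf4 it was villus, crypt and then both E12 layers, for Klf6 villus and endoderm followed by mesenchyme and crypt, and for Klf5 crypt, villus and endoderm close together with mesenchyme far below. Among the neighbours tested in these orders, villus and endoderm for Klf6, and crypt, villus and endoderm for the brighter Klf5 probe set, did not pass the test. The order of the E12 layers in this table rests on 1 array each and was not tested there, nor was mesenchyme against crypt. By the other Klf4 probe set, 1417394_at, crypts lay at the 76.6th to 83.4th percentile of their arrays. Endoderm lay at the 58.0th in this table but at the 75.6th to 82.3rd in the second. By the probe set used, 1417395_at, crypts lay at the 83.0th to 88.2nd. Endoderm lay at the 54.0th there and at the 63.3rd to 69.4th in the second table. The Klf4 order is therefore given for the first table only. Likeness of pattern was measured as the root mean square difference of array values, each gene centred on its own mean over the 8 arrays of this table, among 4958 genes whose group means spanned at least 1 log2 unit. Closest to Klf4 were the NF-kappa-B subunit gene Relb (0.29), Lratd1 (0.34) and the neurotensin gene Nts (0.34), and closest to Klf5 were the keratin gene Krt19 (0.40), B4galnt1 (0.40) and Lgals2 (0.45). Relb, for example, averaged 7.46 in crypts, 9.85 in villi, 5.62 in endoderm and 6.12 in mesenchyme.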

How the data were processed

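The deposited values are log2 signals per probe set, which the authors made with RMA per the submitters' processing notes. RMA corrects background, normalizes across arrays and summarises probes, and it compresses differences near background. For RMA's version, its software and a genome build, the status is: not given in the sources used here. Arrays give no read depth, and their number limits the precision. Probe sets were named through the platform annotation, and 20393 of 22690 had 1 symbol. Where several probe sets named a gene, the one with the largest average signal in a fit stood for it, so the probe set of Klf4, Klf6 and Klf7 differs between tables. Genes above the 30th percentile of a table in at least 3 arrays were tested with limma 3.58.1 (lmFit, eBayes) under R 4.3.3. Adjustment was by Benjamini and Hochberg across every gene tested, and an adjusted p under 0.05 made a call. Villi were tested against crypts on 6 arrays, E12 endoderm against mesenchyme on the 6 arrays of the second table, and crypts and villi against E12 endoderm in 1 fit of 8 arrays.

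The members, the gene lists and the rules for naming genes were chosen with earlier results of these data known. All members are named, with at most the 2 largest called differences per direction of each partner list, and for Klf4 and Klf5 the 3 genes with the most similar pattern. Per the labels, E12 samples are separate pools and adult samples come from a mouse each. Nothing says whether crypt and villus samples with a shared number came from the same animal, so p-values measure the spread between these samples. In the E12 layers, samples with the same number deviated from their group means together. Correlations across genes were 0.21, 0.23 and 0.11 for numbers 2, 3 and 4, and this was taken as pairing. Endoderm 3 with mesenchyme 4, of unlike numbers, gave 0.13. The main E12 test did not use the numbers, so its SE and p-values are unpaired, and the replicate block was an alternative. No 2 arrays of a table held the same values. Alternatives were no filter, quantile normalization, other probe set rules, another prior, a replicate block, other sets of arrays and leaving out each replicate.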

Additional observations from a re-analysis of the deposited data

How the results depend on the processing

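Of 449 alternative values of single members, 426 kept their direction and side of the threshold, 17 changed sign, 4 passed the test newly and 2 no longer passed. Klf4, Klf6 and Klf15 between villi and crypts, and Klf2, Klf3, Klf5, Klf6 and Klf7 between the E12 layers, kept direction and call in every alternative. All values that changed sign had failed the test. Between villi and crypts Klf13 became 0.17 with the median of probe sets, and Klf9 became 0.011 with the replicate block. Without single replicates Klf2 ran from -0.17 to 0.20, Klf5 from -0.49 to 0.028 and Klf13 from -0.24 to 0.0017. Between the E12 layers Klf15 became 0.062 after quantile normalization and 0.027 with all E12 arrays and table as a block, and without single replicates Klf4 ran from -0.38 to 0.028, Klf10 from -0.485 to 0.105 and Klf15 from -0.11 to 0.065. Against E12 endoderm the villus difference of Klf6 was -0.28 with the median of probe sets and ran from -0.27 to 0.32 without single replicates. The cause of these changes was not tested.

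The number of members called ran from 4 to 6 between villi and crypts, 5 to 6 between the E12 layers, 4 to 6 for crypts and 4 to 4 for villi against E12 endoderm. Over all genes, 3183 calls between villi and crypts became 1260 with the replicate block and 1851 to 3069 without single replicates, and 2348 for crypts against E12 endoderm became 1340 to 2326, lowest without crypt replicate 21 in both. The shared crypt and villus numbers 12 and 41 had correlations of 0.16 and 0.07 and share only a number. In that block, which rests on 2 pairs, the Klf10 difference was 1.89 with a limma adjusted p of 0.026 (0.026 to 0.29 over the alternatives). The block of the E12 numbers changed no call of a member. Klf15 outside crypts lay near background and Klf2 outside mesenchyme below the array median, which limits the size of their differences.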

Other observations

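One Klf9 probe set, 1456341_a_at, read very differently in the E12 arrays of the 2 tables. It stood at 4.47 in endoderm and 4.24 in mesenchyme in the first table, while in the second its arrays ran from 6.95 to 7.35 in endoderm and from 7.09 to 8.37 in mesenchyme. The mean shift of the layers between tables was 3.08 log2 units, and 16 of 20393 probe sets with 1 symbol had a higher one. The median shift of these probe sets was -0.29. In crypts and villi, on the first table, this probe set averaged 8.61 and 7.29. The brightest Klf9 probe set, used above, shifted by 0.54. The difference of 1456341_a_at between crypts and E12 endoderm was 4.15, a size that is not exact because the endoderm array was at the 10.8th percentile, below background. Klf7 probe set 1419355_at shifted by 1.62 and Klf9 probe set 1452723_at by -1.93, the lowest shift among the 27. Klf4 probe set 1417394_at shifted by 1.37 and Klf6 probe set 1433508_at by 1.30. Of the probe sets with 1 symbol, 95.9% and 95.3% had a lower shift than these.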
